A study of Rattus norvegicus with 18 samples.

Results

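Heat shock proteins and chaperones were examined in kidneys of congenic rats and of Dahl salt-sensitive (S) rats. The 10 genes considered were Hspa8, Hspa5, Hspa9, Hspb1, Cryab, Hspd1, Hspe1, Hsp90aa1, Hsp90ab1 and Hsp90b1. Each probe set reads a transcript through several short probes. A probe set was taken when the platform annotation gave it exactly 1 gene symbol and that symbol was among the 10. This rule uses no measured value. It found 26 probe sets of 8 genes, out of 10969 genes that have such a probe set. Hspa8 and Hsp90aa1 had 2 and 3 probe sets, each annotated with several symbols, so no value is given for them. Of the 26 probe sets, 23 passed a filter on dim signals and were tested, at least 2 for each of the 8 genes.

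Chaperones bind proteins that are unfolded or partly folded and help them to fold, to be moved across membranes or to be degraded. Many are present in every cell, and a subset is induced by heat, oxidants, low oxygen or high salt through heat shock factors that bind heat shock elements in promoters. The endoplasmic reticulum (ER) has its own set, induced through the unfolded protein response. In the kidney, small heat shock proteins such as Hspb1 and Cryab are abundant in the medulla, where cells face high osmolarity, and in smooth muscle. Mitochondrial chaperones serve the tubule segments that depend on respiration.

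The congenic rats, whose strain label ends in x3A, have the Dahl S background with a part of chromosome 9 taken from R (salt-resistant) rats, in which the labels place a quantitative trait locus for blood pressure. The Dahl S rats are the parent strain without it. For both strains, 3 samples of total kidney RNA were read on 3 array types (A, B and C below). No age, diet or treatment is given in the labels used here. Whether the samples came from separate animals is not said either, and the p-values then reflect sample-to-sample spread that may be technical. All values are signals on a linear scale, 1 per probe set. Median signals of the 18 arrays lay between 34.8 and 78.5. Within each array type both samples numbered 1 had the highest medians. The number of arrays limits the precision. Markers of the proximal tubule, the main cell type of kidney cortex, were measured above the filter for 12 of 12 genes. The samples numbered 1 of both strains stood apart from those numbered 2 and 3, as described below.

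Of the 8 measured genes, 3 are encoded on chromosome 9 in the GRCr8 assembly: Hspd1, Hspe1 and Hsp90ab1. Whether any of the 3 lies inside the introgressed part cannot be said here, because the labels do not state its borders. Hspd1 and Hspe1 encode the 2 subunit types of the mitochondrial chaperonin, lie next to each other in the gene order and are transcribed away from each other. Their promoter windows, taken around the annotated start in RefSeq, shared 211 of 300 bases on opposite strands. The Hspe1 window (GRCr8 chr9:64084077-64084376, plus strand) is shown because most of it is also the Hspd1 window. Capitals mark 2 overlapping matches, 1 on each strand, to a heat shock element of 3 units, which is GAANNTTC followed after 2 further bases by GAA, at positions -65 to -48 relative to the annotated start.
Hspe1: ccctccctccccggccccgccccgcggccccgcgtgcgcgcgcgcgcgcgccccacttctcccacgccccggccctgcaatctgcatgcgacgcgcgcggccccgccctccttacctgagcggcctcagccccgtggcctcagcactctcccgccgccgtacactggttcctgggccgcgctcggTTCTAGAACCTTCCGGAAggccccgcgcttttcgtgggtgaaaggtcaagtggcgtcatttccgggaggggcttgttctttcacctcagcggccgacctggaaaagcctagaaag
That motif, searched on both strands, was in 0.798% of 33469 promoter windows. Among the 8 listed genes with a window it was in Hspa8, Hspd1 and Hspe1. The matches of Hspd1 and Hspe1 are the same site, which lies in the bases that their windows share. A shorter match of 2 units, GAANNTTC, which lies within the longer motif, was in 8.59% of windows and also in Hspa9 and Hspb1.

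The windows of both ER members held the ER stress response element, which is CCAAT and CCACG with 9 bases of any kind between them and through which the unfolded protein response acts. It was searched on both strands. They are shown because Hspa5 and Hsp90b1 are textbook targets of that response and are described together below. Capitals mark the element, which matched once in Hspa5 (GRCr8 chr3:38452766-38453065, plus strand, positions -43 to -25). It matched in 2 places in Hsp90b1 (GRCr8 chr7:23012244-23012543, minus strand), at -176 to -158 and, on the opposite strand, at -72 to -54.
Hspa5: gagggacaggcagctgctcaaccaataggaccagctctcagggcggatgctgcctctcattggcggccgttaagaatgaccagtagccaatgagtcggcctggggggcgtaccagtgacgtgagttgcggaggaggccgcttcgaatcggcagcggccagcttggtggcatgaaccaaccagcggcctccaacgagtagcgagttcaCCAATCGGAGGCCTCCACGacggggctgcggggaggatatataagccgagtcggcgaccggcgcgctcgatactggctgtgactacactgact
Hsp90b1: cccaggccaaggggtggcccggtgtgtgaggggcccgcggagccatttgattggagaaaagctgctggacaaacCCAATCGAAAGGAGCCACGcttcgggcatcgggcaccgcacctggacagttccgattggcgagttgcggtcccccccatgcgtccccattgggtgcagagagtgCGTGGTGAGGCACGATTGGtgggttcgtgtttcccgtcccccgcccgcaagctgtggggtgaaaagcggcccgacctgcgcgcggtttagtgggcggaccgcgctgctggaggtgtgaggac
The element was in 22 of 33469 windows (0.0657%). A match describes these letters only and is not evidence of binding.

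None of the 8 measured heat shock proteins differed between the strains beyond the spread between samples. In limma 0 of 23 probe sets passed an adjusted p of 0.05, and over all 15721 tested probe sets the share called was 0.00%. At an unadjusted p under 0.05 there were 0 of 23, against 2.49% of all tested probe sets. The 3 congenic values and the 3 Dahl S values overlapped in each of the 23, whereas 7.08% of all tested probe sets had no overlap. The log2 difference, congenic minus Dahl S, was positive for 13 probe sets and negative for 10, with a median of +0.03, against -0.003 over all tested probe sets. It was under 1 standard error (SE) for 22 of the 23, and for 71.6% of all tested probe sets. For 20 of the 23 it was within 0.25 log2 units of 0, as for 61.8% of all. These are probe sets and not separate genes, and several target the same transcript. In whole kidney RNA, fewer cells of a type and less RNA per cell cannot be told apart.

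The precision of the arrays limits what the absence of a call shows. The 95% interval of the strain difference lay within 1 log2 unit of 0, and so excluded a doubling or halving, for 19 of 23 probe sets, against 58.0% of all tested probe sets. The median SE was 0.23 in the 23 and 0.30 over all tested probe sets. Comparisons with all tested probe sets, here, above and below, were not matched for signal level. The 4 whose interval reached further were 1 of Hspa5, 1 of Hspb1 and 2 of Hsp90b1. Every one of the 8 genes had at least 1 probe set whose interval stayed within 1 log2 unit.

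**Figure D1:**
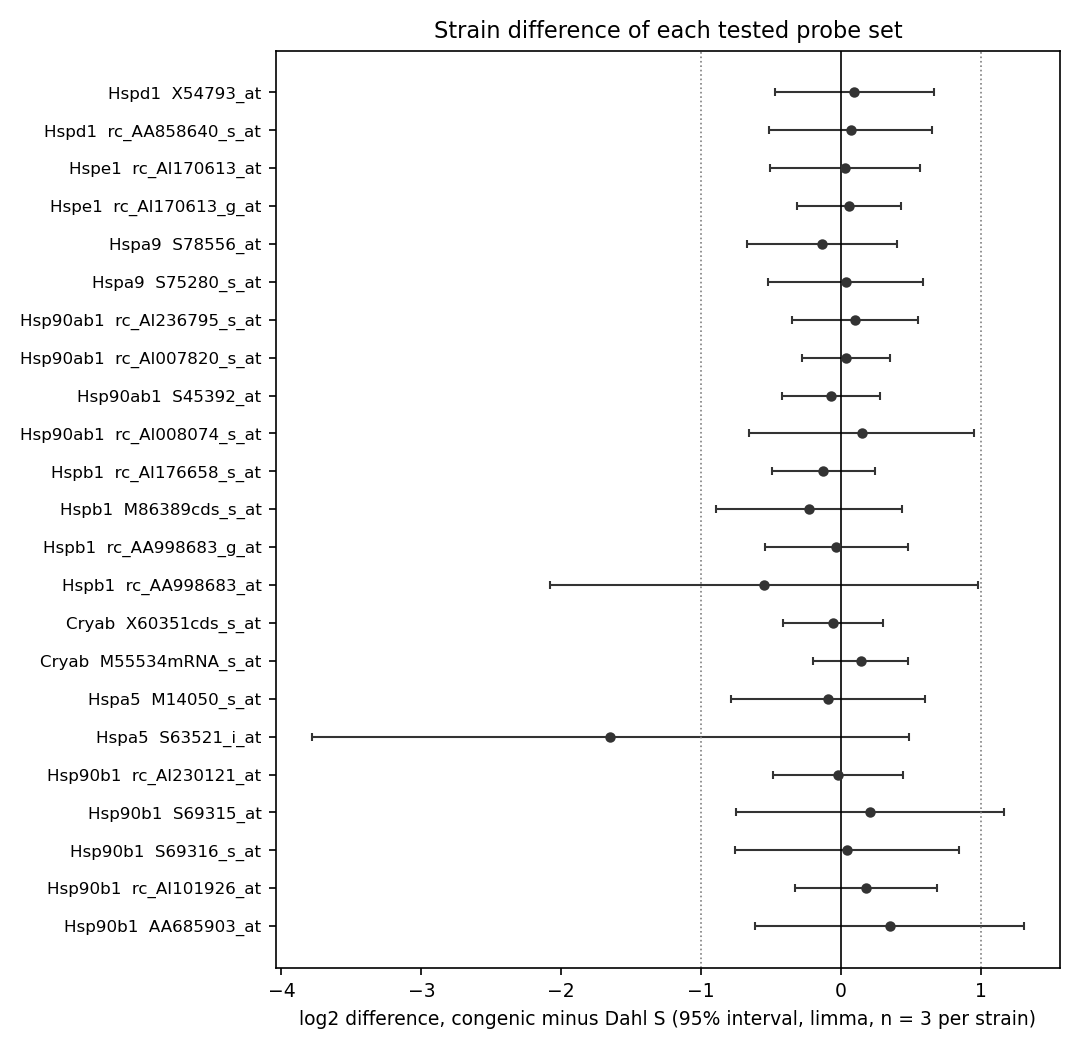
Log2 difference of signal, congenic minus Dahl S, on the x axis for the 23 tested probe sets of 8 heat shock protein genes. Points are limma estimates and bars their 95% intervals (n = 3 per strain), and dotted lines mark 1 log2 unit in either direction. All 23 intervals include 0, and 19 stay between the dotted lines.

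Strain differences of the mitochondrial chaperones were all under 1 SE. Hspd1, the barrel-forming chaperonin Hsp60, had signals of 1904.5, 2724.3 and 3119.1 in congenic samples 1, 2 and 3, against 1706.2, 2771.2 and 2807.9 in Dahl S samples 1, 2 and 3 (probe set X54793_at). Both strains had their lowest value in sample 1, and the ranges overlapped. The log2 difference was +0.10 (SE 0.25, 95% interval -0.47 to +0.66). A second Hspd1 probe set gave +0.07 (SE 0.25), with 957.4, 849.9 and 1313.6 in congenic samples and 679.9, 1109.0 and 1226.3 in Dahl S samples.

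Hspe1, the lid of the same chaperonin, read 1308.5, 1659.7 and 2279.2 in congenic samples, against 1312.0, 1808.5 and 1977.5 in Dahl S samples. Here too sample 1 was lowest in each strain. The difference was +0.03 (SE 0.23), and a companion probe set from the same sequence gave +0.06 (SE 0.16). Hspa9, the mitochondrial HSP70 that pulls proteins through the inner membrane, read 294.3, 428.8 and 519.0 in congenic samples and 367.7, 483.7 and 487.5 in Dahl S samples (S78556_at; difference -0.13, SE 0.23). Sample 1 was again the lowest of each strain. The second tested Hspa9 probe set did not share that order: its congenic values were 172.3, 104.5 and 158.8 and its Dahl S values 133.4, 146.9 and 136.5 (+0.03, SE 0.24). The remaining Hspa9 probe set was not tested, with all 6 signals between 2.7 and 6.4.

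In the cytosol, Hsp90ab1 encodes the constitutive HSP90 that holds kinases and steroid receptors in an activatable state. Its 4 probe sets gave log2 differences between -0.07 and +0.15. The narrowest of all 23 intervals was here: rc_AI007820_s_at read 2280.0, 2627.0 and 2074.3 in congenic samples and 2262.7, 2104.9 and 2425.6 in Dahl S samples (+0.04, 95% interval -0.28 to +0.35). The 6 values of that probe set were intermixed. By contrast rc_AI008074_s_at read 697.1, 375.3 and 368.7 in congenic samples and 676.2, 322.6 and 326.5 in Dahl S samples (+0.15, SE 0.35). In it both samples numbered 1 were high, by 0.91 log2 units over the mean of the other samples in the congenic strain and by 1.06 in the Dahl S strain. Another probe set, rc_AI236795_s_at, went the other way in those samples, with shifts of -0.32 in the congenic strain and -0.60 in the Dahl S strain.

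The small heat shock proteins form oligomers that hold unfolding proteins without using ATP. Cryab, alpha B-crystallin, read 663.5, 746.5 and 736.3 in congenic samples, against 559.7, 706.5 and 690.4 in Dahl S samples (M55534mRNA_s_at; +0.14, SE 0.15). The other Cryab probe set had the opposite sign, -0.06 (SE 0.15), with 1165.4, 1237.8 and 963.6 in congenic samples and 1320.1, 1046.0 and 1135.4 in Dahl S samples. Neither difference exceeded its SE.

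Hspb1, known as Hsp25 in rodents and as a regulator of actin filaments, had negative differences in all 4 probe sets, from -0.55 to -0.03. Probe set rc_AI176658_s_at read 502.6, 599.0 and 486.0 in congenic samples and 608.0, 498.5 and 630.2 in Dahl S samples (-0.13, SE 0.16). The value of -0.55 (SE 0.67) came from rc_AA998683_at, with 278.4, 256.4 and 40.3 in congenic samples and 211.6, 172.1 and 249.4 in Dahl S samples. A single low value, congenic sample 3, set it: without that sample the difference was +0.36. A companion probe set from the same sequence, rc_AA998683_g_at, read 187.0 in congenic sample 3 and differed by -0.03 (SE 0.22). The fourth gave -0.23 (SE 0.29).

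**Figure D2:**
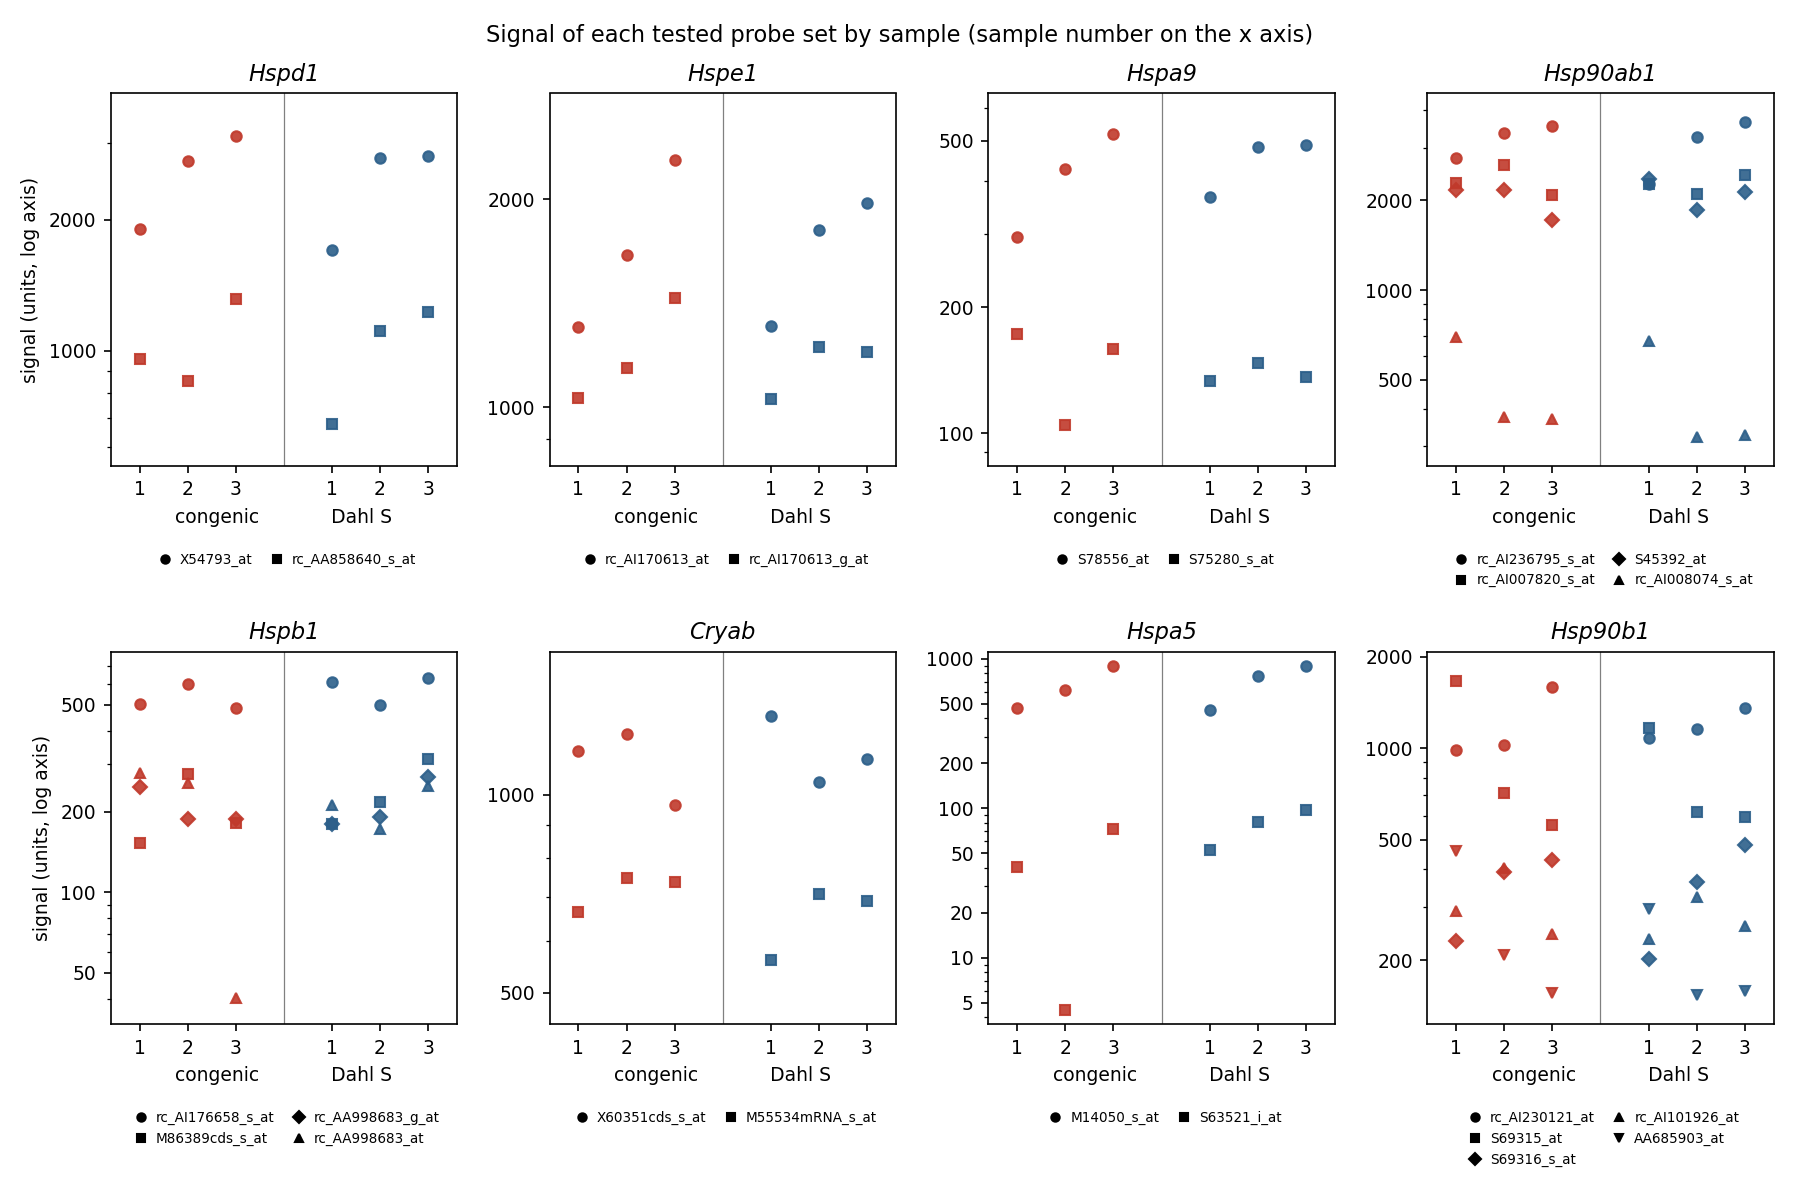
Signal (log axis) of each tested probe set in each sample, with 1 panel per gene, congenic samples 1 to 3 in red at left and Dahl S samples 1 to 3 in blue at right; marker shapes are probe sets. The strains overlap in every panel, and the isolated low points are Hspb1 in congenic sample 3 (40.3) and Hspa5 in congenic sample 2 (4.5).

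The ER chaperones held 3 of the 4 intervals that reached past 1 log2 unit. Hspa5, the ER HSP70 known as BiP, read 469.1, 614.9 and 889.6 in congenic samples, against 457.5, 764.2 and 889.0 in Dahl S samples (M14050_s_at). The strains had nearly the same lowest and highest values, and the difference was -0.09 (SE 0.30). Another probe set, S63521_i_at, had the largest difference of the 23, -1.65 (SE 0.93, limma adjusted p = 0.9997). Its signals were 40.4, 4.5 and 73.1 in congenic samples and 52.4, 80.9 and 96.9 in Dahl S samples. Congenic sample 2 was below 21.2, the filter level of type A, so the size is uncertain, and without that sample the difference was -0.45. The remaining Hspa5 probe set was not tested, with signals of 0.4 to 6.0.

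Hsp90b1, the ER HSP90 known as GRP94, had 5 tested probe sets on 2 array types, with differences of -0.02 to +0.35 and none over 1 SE. A probe set on type C read 986.3, 1028.7 and 1589.6 in congenic samples and 1078.7, 1158.2 and 1354.9 in Dahl S samples (rc_AI230121_at; -0.02, SE 0.20). The value of +0.35 (SE 0.42) came from AA685903_at, with 457.9, 208.3 and 155.6 in congenic samples and 294.9, 154.1 and 158.6 in Dahl S samples. S69315_at had the same 3 highest samples in the same order, with 1663.0, 709.7 and 560.1 in congenic samples and 1167.7, 618.7 and 595.8 in Dahl S samples (+0.21, SE 0.42). In both of these, congenic sample 1 was the highest value and Dahl S sample 1 the next. Without congenic sample 1 the differences were -0.10 for AA685903_at and -0.26 for S69315_at. S69316_s_at had the reverse order, with both samples numbered 1 lowest: 231.8, 389.9 and 427.5 in congenic samples and 202.8, 362.6 and 480.8 in Dahl S samples (+0.04, SE 0.35). The remaining type C probe set gave +0.18 (SE 0.22), and 1 on type B was not tested, with 5 of 6 signals below the filter level of 39.3.

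The sample number, which both strains share, went with larger differences than the strain did. The mean shift of samples numbered 1 exceeded the strain difference in 19 of 23 probe sets, and in 65.1% of all tested probe sets. In 13 of the 23 probe sets both samples numbered 1 lay outside the range of the other 4 samples, below it in 9 (14.2% of all tested probe sets) and above it in 4 (15.2%). All 13 were on type A, where they were 13 of 21, and the background share was 31.0% on type A and 29.4% over all types. These shares were not matched for signal level, and the median SE was 0.23 in the 23 against 0.30 over all tested probe sets. The probe sets are not independent, and the pattern of samples numbered 1 was already known when it was counted here. The genes with both samples numbered 1 lowest in at least 1 probe set were Hspd1, Hspe1, Hspa9, Hspb1, Cryab, Hspa5, Hsp90ab1 and Hsp90b1, that is all 8. For Hsp90ab1 and Hsp90b1 other probe sets of the same gene had those samples highest, 2 in each. Among the 13, Hsp90b1 had shifts in both directions. Sample 1 minus the mean of samples 2 and 3 was +1.40 log2 units in congenic and +0.94 in Dahl S kidneys for S69315_at, and -0.82 in congenic and -1.04 in Dahl S kidneys for S69316_s_at.

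**Figure D3:**
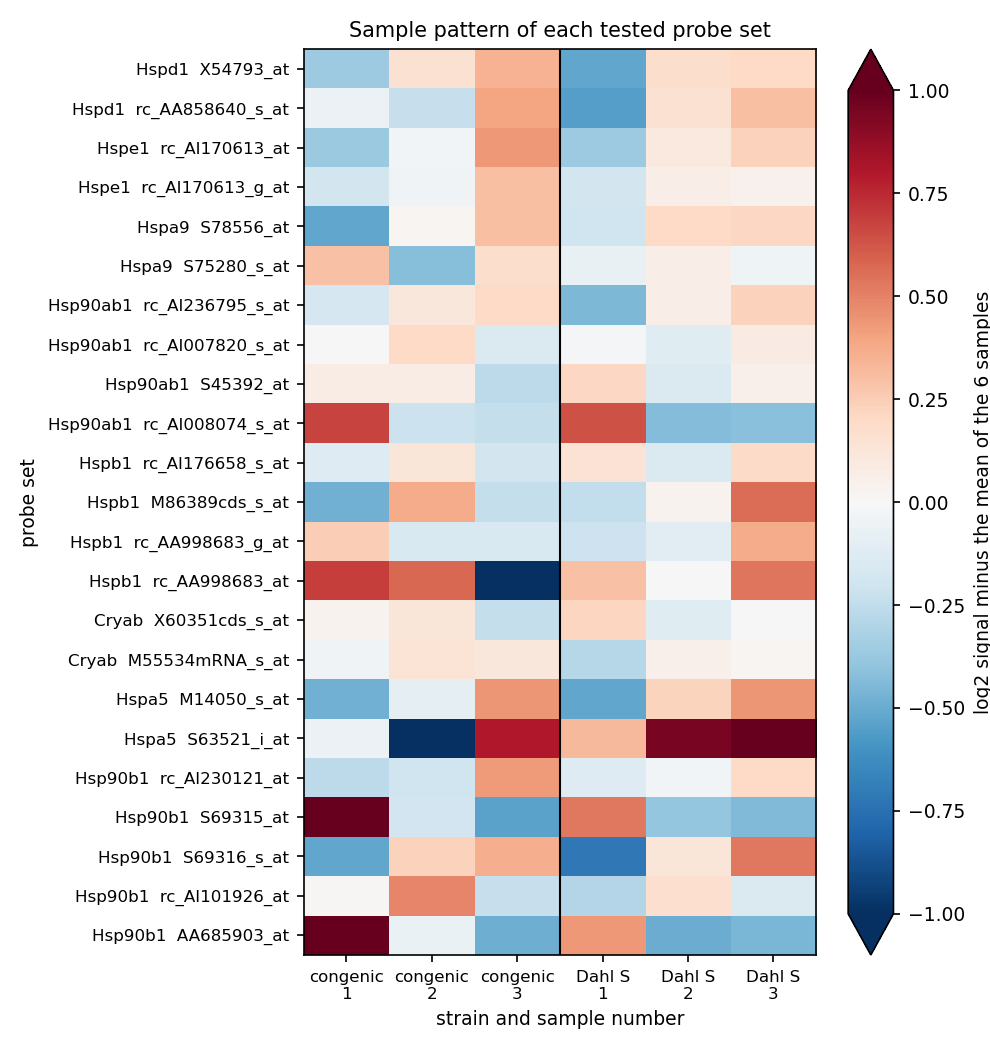
Log2 signal minus the mean of the 6 samples (colour, from -1 in blue to +1 in red, with values beyond that clipped) for the 23 tested probe sets, in congenic samples 1 to 3 at left and Dahl S samples 1 to 3 at right. Sample 1 differs from the mean of samples 2 and 3 in the same direction in both strains in 18 of 23 rows, against 66.5% of all tested probe sets. These shares were not matched for signal level. Examples of the same direction are Hspe1 (lower) and S69315_at of Hsp90b1 (higher). The directions are opposite in the other 5 rows, such as rc_AA998683_g_at of Hspb1 (+0.40 in congenic and -0.34 in Dahl S kidneys). S63521_i_at of Hspa5 is another (+1.16 in congenic and -0.76 in Dahl S kidneys). Its congenic shift rests on sample 2, at 4.5, below the filter level of 21.2.

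A measure of RNA quality moved with the sample number. The log2 ratio of 3 prime to 5 prime signal of beta-actin control probe sets on type A was 0.59, 1.07 and 1.41 in congenic samples 1, 2 and 3, against 0.56, 1.08 and 1.19 in Dahl S samples 1, 2 and 3. That of GAPDH was 0.04, 0.33 and 0.57 in congenic samples, against 0.17, 0.52 and 0.46 in Dahl S samples. Samples numbered 1 had the lowest ratio of their strain for both controls on all 3 array types. Median array signals also moved with the sample number. On type A they were 45.9 in congenic and 45.5 in Dahl S sample 1, against 34.8 to 39.4 in the other samples. On types B and C too the samples numbered 1 had the highest medians. The part of either measure in the pattern of the heat shock probe sets was not tested. With a term for samples numbered 1 in the fit, the median SE of the 23 fell to 0.15, against 0.23 without the term. The number with an unadjusted limma p under 0.05 was still 0, against 4.48% of all tested probe sets in that fit. The intervals within 1 log2 unit of 0 then numbered 21. For Hspd1 (X54793_at) the difference of +0.10 had an SE of 0.10 in that fit.

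The 2 genes whose brightest probe set varied most over the 6 samples were Hspa5 and Hspd1, with standard deviations of 0.44 and 0.35 log2 units. Among 8168 tested genes, the sample pattern closest to that of Hspa5 was that of Ccne2, cyclin E2, at a root mean square distance of 0.061 log2 units between centred values. It was followed by Cyp4a1, a fatty acid hydroxylase (0.073), and Ctnna1, alpha-catenin (0.077). For Hspd1 the closest were the homeobox factor Cux1 (0.041), the deadenylase Cnot8 (0.043) and the carnitine transporter Slc22a5 (0.050). In all 6 of these genes both samples numbered 1 were below the other 4, as in the 2 probe sets they were picked to resemble. That order therefore follows from the choice and is not a separate result. With so few samples many genes can have a similar pattern, and the likeness is a description.

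No other chaperone passed the adjusted threshold either. Of 115 other genes in 8 lists, 93 were tested with 152 probe sets, of which 72 were higher and 80 lower in congenic kidneys, with a median log2 difference of -0.02. In limma 0 passed an adjusted p of 0.05, and 1 had an unadjusted p under 0.05. It was higher in congenic kidneys, as were 1.17% of all tested probe sets at that p. That probe set was of Fkbp2, an ER prolyl isomerase, with 483.4, 427.6 and 436.7 in congenic samples and 187.8, 288.7 and 394.3 in Dahl S samples (+0.69, SE 0.27, limma adjusted p = 0.9997). The congenic values were all higher. The other 4 Fkbp2 probe sets gave +0.02 to +0.24, and their strains overlapped.

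By role, the other HSP70 and HSP110 proteins had 4 of 7 probe sets higher (median +0.09), and the smallest p was that of Hspa12a, a distant HSP70 relative (+0.47, SE 0.29). Inducible HSP70, Hspa1a, chosen here after its values were seen, read -1.18 (SE 0.81) and -0.33 (SE 0.29). The rest of that list read -0.28 and +0.26 (Hspa4), +0.09 (Hsph1) and +0.40 (Hyou1). The J-domain proteins, which hand clients to HSP70, had 16 higher and 16 lower (median +0.02). Dnajc10, an ER disulfide reductase, had the smallest p (+0.57, SE 0.32), and its other probe set read -0.67. Co-chaperones of HSP70 and HSP90 had 13 of 25 higher (median +0.02), with the HSP90 partner p23, Ptges3, at +0.27 (SE 0.19). Other small heat shock proteins had 2 of 8 higher (median -0.20), with Hspb8 at -0.63 (SE 0.39): 83.4, 60.9 and 59.7 in congenic samples, against 144.3, 86.1 and 90.0 in Dahl S samples, without overlap.

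The cytosolic chaperonin and prefoldin, which fold actin and tubulin, had 7 of 18 probe sets higher (median -0.03), with Pfdn5 at +0.22 (SE 0.25). ER folding and unfolded protein response genes had 19 of 44 higher (median -0.04), Fkbp2 among them. Mitochondrial chaperones and proteases had 7 of 13 higher (median +0.05), with the protease Yme1l1 at +0.24 (SE 0.20) and +0.23 (SE 0.28). Heat shock factors and their binding protein had 4 of 5 higher (median +0.01), with Hsbp1, a negative regulator of heat shock factor, at +0.32 (SE 0.19) and, in its other probe set, +0.04 (SE 0.20). Over the 8 lists, 8 of 152 probe sets had no overlap between the strains, against 7.08% of all.

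**Figure D4:**
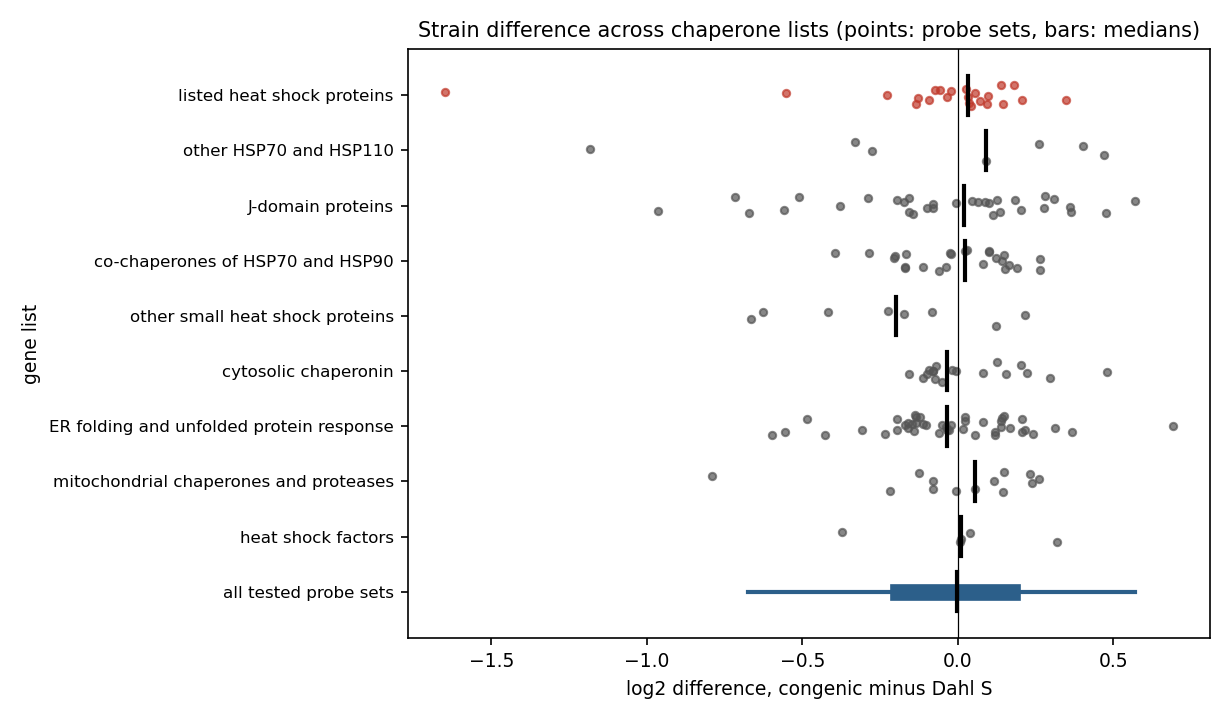
Log2 difference, congenic minus Dahl S, of each tested probe set (points, spread vertically for visibility) in the listed heat shock proteins (red) and 8 other chaperone lists (grey), with black bars at the medians. At the bottom, all 15721 tested probe sets are shown by their 5th to 95th percentile (thin line) and 25th to 75th percentile (thick line). The list medians lie between -0.20 and +0.09.

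Genes were also grouped by the letters in their promoter windows. Of 29 tested genes whose window held the 3-unit heat shock element, 17 were higher and 12 lower in congenic kidneys (median +0.03), and 0 had an unadjusted limma p under 0.05. Of 394 with the 2-unit match, 181 were higher and 213 lower (median -0.02), and 9 were under that p. Of 12 with the ER stress response element, 5 were higher and 7 lower (median -0.06), again with 0. The share among 6781 tested genes with a window was 2.39%. These groups were formed after other results of these data were known.

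Markers of several cell types and states were counted beside the heat shock proteins. The summed signal of the 23 heat shock probe sets was 20721 to 23074 in congenic samples and 19348 to 23482 in Dahl S samples, which overlap. Smooth muscle markers had 4 of 15 probe sets higher (median -0.29), with sums of 2475 to 3229 in congenic and 3263 to 4051 in Dahl S samples. The actin-binding Tagln read -0.83 (SE 0.21), -0.38 (SE 0.17) and -0.29 (SE 0.23) in its 3 probe sets. Osmotic response genes of the medulla, such as the inositol transporter Slc5a3 (+0.53, SE 0.23), had 12 of 12 higher (median +0.27), with sums of 3665 to 4451 in congenic and 3333 to 3574 in Dahl S samples. Over all tested probe sets 49.5% were higher. None of these markers passed limma's adjusted threshold.

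Tubular injury genes had 1 of 10 higher (median -0.75), with sums of 2544 to 3350 in congenic and 4773 to 6776 in Dahl S samples, and the secreted chaperone clusterin, Clu, at -1.09 (SE 0.19). In them 5 of 10 probe sets had an unadjusted limma p under 0.05, all lower, and 4 of 10 had no overlap between the strains. In limma 0 passed an adjusted p of 0.05, and the list was chosen with earlier results of these data known. Timp1 entered with rc_AI169327_at and its companion rc_AI169327_g_at, from the same sequence, while rc_AI235224_s_at gave -0.40 (SE 0.35). Congenic sample 2 was below the filter level of 21.2 for Lcn2 (13.2) and rc_AI169327_g_at (18.7). An unadjusted limma p under 0.05 was also reached by 3 of 15 smooth muscle and 2 of 12 leukocyte probe sets, all lower. The other marker lists had 0, against 2.49% of all tested probe sets. Strains were also without overlap in 3 of 15 smooth muscle, 3 of 12 leukocyte, 3 of 21 proximal tubule and 2 of 12 osmotic response probe sets. The red blood cell and the skeletal and heart muscle lists had 0, and the share over all tested probe sets was 7.08%. Leukocyte markers had 1 of 12 higher (median -0.37), with sums of 6416 to 7017 in congenic and 7366 to 8975 in Dahl S samples. Of 5 Cd74 probe sets, that with the smallest p read -1.26 (SE 0.41) and the other 4 between -0.35 and -0.17. Proximal tubule markers had 17 of 21 higher (median +0.13), with Pck1 at +0.31 (SE 0.16) and +0.45 (SE 0.26). Their sums were 88115 to 98571 in congenic and 82946 to 85439 in Dahl S samples. Red blood cell genes had 2 of 8 higher (median -0.44; Hba-a1 -0.67, SE 0.52). Of 10 skeletal and heart muscle genes only 2 passed the filter on dim signals (3 probe sets, median -0.33; Myh6 -0.63, SE 0.41, and -0.33, SE 0.33). Sums of the red blood cell list were 10245 to 19628 in congenic and 12982 to 52425 in Dahl S samples, which overlap. Those of the skeletal and heart muscle list were 305 to 533 and 460 to 560 in the same order, which overlap too. Whether the share of smooth muscle or medulla differed between the samples, and its part in the levels of Hspb1 and Cryab, was not tested.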

How the data were processed

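RNA from kidneys of 3 congenic and 3 Dahl S samples was read on 3 array types, and the titles gave strain and sample number. The authors deposited linear signal intensity, with 1 value for each probe set. The mean after trimming 2% at each end was 150.1 to 150.2 on every array, and no scaling was added. No source used here names the summarising software. Intensities were raised to the 10th percentile of their array type (3.1, 6.8 and 4.9 on A, B and C) before log2. Probe sets below the 40th percentile of mean log2 intensity were left untested, as were the 59 controls of each type; 15721 of 26202 remained. In the annotation 18178 probe sets had 1 symbol, 391 had more and 7633 had none.

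The strain difference, congenic minus Dahl S, came from limma 3.58.1 in R 4.3.3, fitted per array type with variances moderated along a trend in intensity, with Benjamini-Hochberg adjustment over the 3 types and a threshold of 0.05. The listed genes, the other lists and the alternatives were chosen with earlier results of these data known. All listed genes are named. Other chaperones are named where an unadjusted limma p was under 0.05 or, failing that, where it was the smallest of the list. Each marker list is named by the gene with its smallest p. Exceptions are Timp1 and Lcn2, named for the limits of their probe sets. The other HSP70 and HSP110 proteins are also an exception, since all tested ones are named. Promoter sequences are from RefSeq (GRCr8), with windows of 300 bases for 8 of the 10 genes. Alternatives changed the floor, filter, normalization, variance model, block, samples used, adjustment or threshold. Figures used matplotlib 3.10.9 (Python 3.11.15).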

Additional observations from a re-analysis of the deposited data

How the results depend on the processing

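No tested probe set passed in limma under any alternative run: the number called was 0 for all probe sets and 0 for the heat shock proteins with another floor, filter, normalization or variance model, with the replicate block, with each sample left out in turn, without both samples numbered 1, with a term for them, with adjustment within array type and at an adjusted p of 0.1. At an unadjusted p under 0.05 there were 391 and 0. The median difference of the 23 heat shock probe sets was +0.06 with median scaling, -0.041 with the brightest probe set of each gene, +0.041 with the mean over each gene's probe sets and between -0.10 and +0.09 with 1 sample left out, and that of the other chaperones between -0.06 and +0.03 with 1 sample left out. All of these moves were smaller than the spread of per-sample medians (SD 0.15 and 0.07). The correlations of deviations from the strain means were 0.45, 0.08 and 0.18 between same-numbered samples 1, 2 and 3. Number 1 of either strain with number 2 or 3 of the other gave -0.30 to -0.20, and number 2 with number 3 gave 0.15. The samples numbered 1 thus went together, while numbers 2 and 3 could not be paired. Pairing by number was taken here to need over 0.1 in each, which was not met.

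The signs of single differences were not stable, and none passed the threshold. The filters, the variance models, the replicate block (median +0.03) and the term for samples numbered 1 leave each tested estimate as it is by construction. With the filter at the 60th percentile, S63521_i_at of Hspa5, which had the largest difference, was no longer tested. The other floors moved only S63521_i_at of Hspa5. Quantile normalization, median scaling and leaving out both samples numbered 1 moved all 23, and 6 values turned sign, which were rc_AI230121_at of Hsp90b1 with quantile normalization (+0.00070) and, without both samples numbered 1, rc_AI230121_at (+0.030) and S69316_s_at (-0.032) of Hsp90b1, rc_AA858640_s_at of Hspd1 (-0.14), S75280_s_at of Hspa9 (-0.14) and X60351cds_s_at of Cryab (+0.0031). With 1 sample left out in turn, 19 of 23 changed sign at least once. Cryab ranged over -0.13 to +0.048 (X60351cds_s_at). Hsp90ab1 ranged over -0.056 to +0.11 (rc_AI007820_s_at), -0.16 to +0.50 (rc_AI008074_s_at), -0.10 to +0.24 (rc_AI236795_s_at) and -0.16 to +0.040 (S45392_at). Hsp90b1 ranged over -0.10 to +0.68 (AA685903_at), -0.019 to +0.34 (rc_AI101926_at), -0.24 to +0.10 (rc_AI230121_at), -0.26 to +0.52 (S69315_at) and -0.30 to +0.32 (S69316_s_at). Hspa5 ranged over -0.38 to +0.13 (M14050_s_at). Hspa9 ranged over -0.11 to +0.25 (S75280_s_at) and -0.32 to +0.092 (S78556_at). Hspb1 ranged over -1.04 to +0.36 (rc_AA998683_at) and -0.17 to +0.14 (rc_AA998683_g_at). Hspd1 ranged over -0.19 to +0.24 (rc_AA858640_s_at) and -0.14 to +0.30 (X54793_at). Hspe1 ranged over -0.18 to +0.22 (rc_AI170613_at) and -0.081 to +0.16 (rc_AI170613_g_at). The cause was not tested. Signal over background limits S63521_i_at of Hspa5 and the 3 untested probe sets, and no detection call was used here.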
